A study of Mus musculus and Homo sapiens with 59 samples.

Results

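The colony stimulating factors were followed through cells whose plasma membrane was opened with an engineered pore protein or with detergent. The members are the 3 genes Csf1, Csf2 and Csf3 among 19407 rows of the mouse table, and their human counterparts CSF1, CSF2 and CSF3 among 22192 rows of the human table, chosen by symbol and not by any measured value. All 3 were present in each table. The study held 59 polyA-selected RNA libraries in 30 groups, with 2 libraries in 29 groups and 1 library in the remaining group. The values are TPM (transcript abundance scaled to a fixed library total), a length-normalised level which can be compared between genes.

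The mouse lines were NIH3T3 fibroblasts (35 libraries, 18 groups) and LLC lung carcinoma cells (16 libraries, 8 groups), all in DMEM unless stated. Parental cells of both lines carried no construct. MLKL cells carried a membrane-permeabilizing piece of human MLKL, the necroptosis effector, joined to a 2Fv dimerization domain, and were given the dimerizer AP20187 at 100 nM for 1 h. GSDMD cells carried a piece of mouse GSDMD, the pyroptosis pore protein, joined to an HBD domain, and were given 4OHT at 50 nM for 2.5 h. AP20187 was also given to parental NIH3T3 cells and 4OHT to parental LLC cells, as drug controls without a construct. Parental NIH3T3 cells were not given 4OHT, and parental LLC cells were not given AP20187. NIH3T3 MLKL cells were further treated in calcium-free DMEM, after siRNAs named siCTR and siPKC, and in cell populations named noko and p65ko. All 4 of these siRNA and knockout arms carried the MLKL construct, so their untreated groups are MLKL cells too. Digitonin, a cholesterol-binding detergent, was given to NIH3T3 and LLC cells labelled as without construct, at 55 µg/mL for 3 h. HT29 colorectal and BxPC3 pancreatic carcinoma cells, human lines with 4 libraries each, received digitonin at 40 µg/mL for 2 h. The labels do not give the promoter of the constructs, whether a line was 1 clone, the protein kinase C isoform targeted by siPKC, or whether the libraries of a group came from separate cultures, and the p-values then reflect only how far libraries of a group lie apart, which may be technical.

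Colony stimulating factors are secreted proteins named for the blood cell colonies they support in culture. CSF1 (M-CSF) acts through the receptor CSF1R on monocytes and macrophages and is made constantly by fibroblasts and other stromal cells. CSF2 (GM-CSF) and CSF3 (G-CSF) are scarce at rest and are made after inflammatory stimulation. CSF2 signals through a specific alpha chain and the beta chain shared with the interleukin 3 and interleukin 5 receptors, while CSF3 signals through its own receptor and drives neutrophil production. Textbook regulators of the latter pair are NF-kB, which includes p65 (encoded by Rela), and calcium-dependent NFAT for Csf2, and their mRNAs carry AU-rich elements that shorten their life.

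The 3 mouse genes lie on chr3 and chr11 in mm10 (GENCODE vM21). Csf1 (ENSMUSG00000014599.10) spans chr3:107741048-107760469 on the minus strand, with 9 exons in its longest transcript. Csf2 (ENSMUSG00000018916.5) spans chr11:54247271-54249667 on the minus strand, with 4 exons, and lies under the antisense gene Gm12223. Because the sources used here do not state whether quantification used strand, reads of that antisense gene could not be told apart from those of Csf2. Csf3 (ENSMUSG00000038067.2) spans chr11:98701263-98703629 on the plus strand, with 5 exons.

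The sequence at the end of the transcripts is shown because AU-rich elements are a textbook feature of Csf2 and Csf3 mRNA. After the stop codon, the longest Csf2 transcript held 9 copies of the pentamer ATTTA in 317 bases (28.4 per kilobase), a density reached by 0.0951% of 21037 mouse genes. Csf3 held 6 copies in 669 bases (8.97 per kilobase), a density reached by 1.63% of genes, and Csf1 held 4 copies in 2111 bases (1.89 per kilobase), reached by 37.5% of genes. By number of copies alone, in which short regions have no advantage, the shares of genes with as many were 8.4% for Csf2, 16.6% for Csf3 and 27.6% for Csf1. Copies that overlap by a base were each counted, on the transcript strand only. The richest 30-base window of each is printed 5′ to 3′ from the GENCODE vM21 transcripts, with ATTTA in capitals.
Csf1: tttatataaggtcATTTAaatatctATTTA
Csf2: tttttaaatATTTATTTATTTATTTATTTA
Csf3: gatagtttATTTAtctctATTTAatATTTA
The window of Csf2 is a nearly unbroken run of the pentamer, while those of Csf1 and Csf3 hold separate copies.

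RefSeq promoter windows (GRCm38.p6, which has the coordinates of mm10) matched Csf1 and Csf2, and the 250 bases before the start site of each are printed 5′ to 3′ on the gene's own strand because p65 was removed in a part of the study. The searched motifs, on both strands, were the kappaB decamer (the NF-kB binding element), AP-1 (TGANTCA), the TATA box (TATAAA) and the GC box (GGGCGG). Capitals mark the matches, and no match overlapped another. The Csf1 window is chr3:107760470-107760719 and the Csf2 window is chr11:54249900-54250149, both on the minus strand.
Csf1: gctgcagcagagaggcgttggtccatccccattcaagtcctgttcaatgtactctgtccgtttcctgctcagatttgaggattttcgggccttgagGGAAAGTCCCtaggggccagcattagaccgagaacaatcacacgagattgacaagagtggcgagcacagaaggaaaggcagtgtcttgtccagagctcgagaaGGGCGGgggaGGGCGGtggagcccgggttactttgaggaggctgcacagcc
Csf2: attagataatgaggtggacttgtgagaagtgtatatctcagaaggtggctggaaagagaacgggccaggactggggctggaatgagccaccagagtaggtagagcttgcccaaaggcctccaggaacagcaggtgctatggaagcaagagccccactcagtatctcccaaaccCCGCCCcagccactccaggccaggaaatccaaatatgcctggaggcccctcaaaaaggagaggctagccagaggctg
The Csf1 window held 1 kappaB decamer, 154 to 145 bases before the start, which 3.9% of 32851 RefSeq promoters of the same length contain, and 2 GC boxes, which 32.7% contain. The Csf2 window held 1 GC box and none of the other motifs, and its RefSeq start lies 232 bases upstream of the GENCODE start, so the window is displaced from the start used for the gene coordinates above. AP-1 (6.75% of promoters) and TATA box (12.4%) matches were absent from these windows, which says only that those letters are not there.

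A few facts of the libraries bear on the results. Libraries of a group correlated at r = 0.992 to 0.997 over genes, and TPM keep no sequencing depth, so the counting error behind low values is unknown. Fibroblast markers were at 1 TPM or more for 8 of 8 genes in NIH3T3 cells (summed 5790 to 8553 TPM) and for 4 of 8 in LLC cells. Epithelial markers summed to 291 to 543 TPM in LLC cells, from Krt8 and Krt18 with Epcam and Cdh1 near 0, and to 0.542 to 6.68 TPM in NIH3T3 cells. In HT29 and BxPC3 cells all 5 epithelial markers were high. Macrophage markers, which matter because macrophages respond to and make these factors, summed to 20.4 to 98.7 TPM in NIH3T3 and 12.1 to 67.9 TPM in LLC cells, with 4 of 9 genes at 1 TPM or more in NIH3T3 and 2 of 9 in LLC cells. Cd14 and Cd68 made up most of these sums (up to 72.6 and 19.3 TPM in NIH3T3, 64.0 and 8.66 TPM in LLC cells), while the leukocyte genes Ptprc and Adgre1 did not exceed 0.159 and 0.031 TPM. Cd14 rose in several treated groups, by 1.31 in plain MLKL cells (SE 0.082, limma adjusted p = 3.78e-11) and 2.24 in NIH3T3 GSDMD cells (SE 0.082, limma adjusted p = 6.68e-16), and also in LLC GSDMD cells (2.57, SE 0.054, limma adjusted p = 2.35e-12). Of the macrophage list, 2 of 3 tested genes rose in NIH3T3 GSDMD cells (median 0.81, all genes -0.29, 78.6% of genes passed). That count is not above the share of all genes, and the part of these genes in the results was not tested. Rela stood at 49.7 and 49.2 TPM in untreated noko cells and at 13.6 and 14.1 TPM in untreated p65ko cells. The siPKC libraries held Prkca at 7.46, 8.05 and 6.72 TPM against 31.0 to 33.4 TPM in the siCTR libraries. The 4 LLC libraries of the digitonin experiment go against their label of no construct: Gsdmd stood at 326 to 337 TPM there, near the 336 to 377 TPM of LLC GSDMD cells and far from the 20.6 to 22.6 TPM of parental LLC cells. They are called the LLC libraries labelled as without construct, and no Csf1 result within LLC outside digitonin changed its call in a model without them. The untreated NIH3T3 libraries of the digitonin experiment, also labelled as without construct, held Gsdmd at 13.2 and 13.9 TPM, nearer the 11.7 TPM ± 1.00 (SD, n = 2) of untreated MLKL cells than the 5.44 to 6.14 TPM of parental cells. Whether they carry a construct cannot be told from these values.

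Csf1, the macrophage factor, was expressed in all 51 mouse libraries, from 55.7 to 388 TPM with a median of 133 TPM. Untreated parental NIH3T3 cells held 133 and 131 TPM and untreated parental LLC cells 91.8 and 88.8 TPM. On the log2(TPM + 1) scale used throughout, the fibroblasts were 0.54 higher (SE 0.028, limma adjusted p = 7.85e-17), in a comparison where 80.1% of 11935 genes passed the threshold. Lowest of the 26 mouse groups were LLC GSDMD cells given 4OHT, and highest were untreated p65ko cells. Of the 25 pairs of neighbouring groups in that order, 7 overlapped in their libraries.

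**Figure D1:**
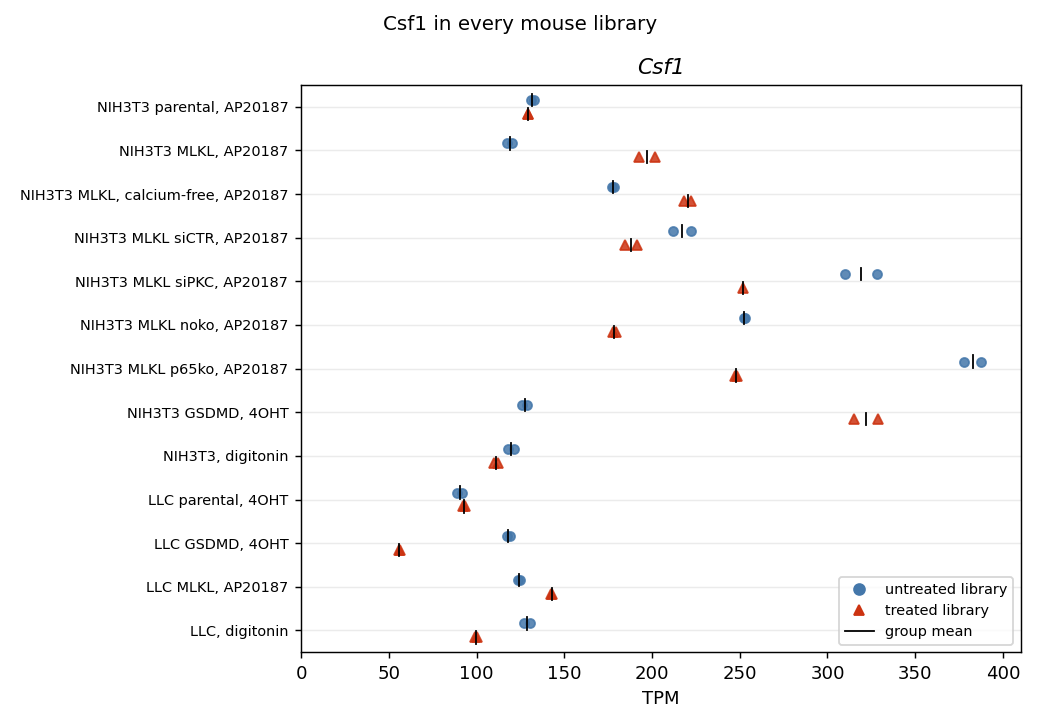
Csf1 level in TPM (horizontal axis) in each mouse library, by experiment (vertical axis), with untreated libraries as circles, treated libraries as triangles and group means as short lines. Treated libraries lie to the right of untreated ones in NIH3T3 MLKL and GSDMD cells, and to the left in the siCTR, siPKC, noko and p65ko arms and in LLC GSDMD cells.

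Opening of the membrane by MLKL in plain NIH3T3 cells raised Csf1. Its level was 118 and 120 TPM in untreated and 193 and 202 TPM in AP20187-treated MLKL cells, with no overlap between groups. The difference was 0.73 (SE 0.032, limma adjusted p = 6.75e-14), in a comparison where 32.3% of 11644 genes passed. Parental cells given the same drug held 130 and 129 TPM against 133 and 131 TPM untreated, a difference of -0.027 (95% interval -0.093 to 0.039, limma adjusted p = 0.979), and 0.304% of 11504 genes passed there. The MLKL response exceeded the parental one by 0.75 (SE 0.045, limma adjusted p = 2.76e-11), an interaction in which 20.5% of genes passed.

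Calcium-free medium changed both the resting level and the response of Csf1. Untreated MLKL cells without calcium held 177 and 178 TPM, which was 0.58 above those in complete medium (SE 0.032, limma adjusted p = 9.33e-12, 36.3% of genes passed). AP20187 then brought the level to 218 and 222 TPM, a rise of 0.31 (SE 0.032, limma adjusted p = 2.25e-06), where 5.69% of 11574 genes passed. The rise was smaller than in complete medium (interaction -0.42, SE 0.045, limma adjusted p = 4.33e-07, 21.9% of genes passed). The treated level without calcium was nonetheless above that with calcium, and the 2 pairs of libraries did not overlap.

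In GSDMD cells given 4OHT, Csf1 moved in opposite directions in the fibroblasts and the carcinoma cells. No parental NIH3T3 cells received 4OHT, so in the fibroblasts GSDMD opening and the drug itself cannot be told apart. In NIH3T3 GSDMD cells it went from 129 and 126 TPM untreated to 315 and 329 TPM after 4OHT, a rise of 1.33 (SE 0.032, limma adjusted p = 3.83e-19), where 78.6% of 11632 genes passed. In LLC GSDMD cells it went from 119 and 117 TPM to 55.7 and 56.1 TPM, a fall (difference -1.06, SE 0.028, limma adjusted p = 1.26e-11), where 82.0% of 10976 genes passed. In bulk RNA, fewer cells that express a gene and less of its RNA per cell cannot be told apart. The median gene fell in both experiments (-0.29 and -0.25), and with medians set equal the changes of Csf1 were 1.60 and -0.92. The response in LLC cells lay below that in NIH3T3 cells (interaction -2.40, SE 0.040, limma adjusted p = 1.57e-27, 60.5% of genes passed), and no library of a treated group reached its untreated group in either line. Parental LLC cells given 4OHT held 93.4 and 92.5 TPM, 0.042 above untreated (95% interval -0.019 to 0.10, limma adjusted p = 0.633, 0.864% of genes passed). The response of GSDMD cells lay below that of parental LLC cells (interaction -1.11, SE 0.038, limma adjusted p = 7.08e-10, 71.8% of genes passed).

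In LLC MLKL cells Csf1 rose less than in the fibroblasts. AP20187 took it from 125 and 124 TPM to 143 TPM in both treated libraries, a difference of 0.20 (SE 0.028, limma adjusted p = 8.23e-04), where 7.56% of 11166 genes passed. The response was smaller than in NIH3T3 MLKL cells (interaction -0.53, SE 0.040, limma adjusted p = 2.36e-11, 12.9% of genes passed). Digitonin lowered Csf1 in both mouse lines. NIH3T3 cells went from 118 and 122 TPM to 112 and 110 TPM (difference -0.11, SE 0.032, limma adjusted p = 0.00458), where 73.5% of 11330 genes passed. That call was lost without the second untreated library (-0.086, limma adjusted p = 0.0565). The LLC libraries labelled as without construct went from 130 and 127 TPM to 100.2 and 99.1 TPM (difference -0.37, SE 0.028, limma adjusted p = 7.57e-07, 52.5% of genes passed), a larger fall than in NIH3T3 cells (interaction -0.26, SE 0.040, limma adjusted p = 2.94e-06, 55.4% of genes passed).

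The siRNA and knockout arms differed from plain MLKL cells in their Csf1 at rest and after AP20187. Untreated siCTR cells held 212 and 222 TPM and untreated noko cells 253 and 252 TPM, which was 0.86 (SE 0.032, limma adjusted p = 9.27e-15, 46.0% of genes passed) and 1.08 (SE 0.032, limma adjusted p = 1.00e-16, 43.7% of genes passed) above plain MLKL cells. After AP20187 they held 192 and 184 TPM and 180 and 178 TPM, close to the 193 and 202 TPM of plain MLKL cells. The siCTR response was a fall (difference -0.21, SE 0.032, limma adjusted p = 8.64e-06), where 65.6% of 11410 genes passed and the median gene fell (-0.19). With medians set equal that fall was no longer called (-0.022, limma adjusted p = 0.541). The noko response was -0.50 (SE 0.032, limma adjusted p = 2.65e-11), where 66.0% of 11682 genes passed and the median gene fell (-0.22), and it was -0.26 with medians set equal. Against the rise in plain MLKL cells, the response was lower in siCTR cells (interaction -0.93, SE 0.045, limma adjusted p = 1.80e-12, 43.6% of genes passed) and in noko cells (interaction -1.22, SE 0.045, limma adjusted p = 2.19e-14, 44.4% of genes passed). These comparisons share the plain MLKL libraries. The same construct and drug went with a higher Csf1 in one set of libraries and a lower Csf1 in the others, and which difference between the sets goes with this was not tested.

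Resting Csf1 was higher in p65ko and siPKC cells than in their controls, while the differences in response to AP20187 missed the threshold. Untreated p65ko cells held 388 and 378 TPM, 0.60 above noko cells (SE 0.032, limma adjusted p = 4.42e-12, 47.0% of genes passed), and untreated siPKC cells held 310 and 328 TPM, 0.55 above siCTR cells (SE 0.032, limma adjusted p = 1.06e-11, 45.6% of genes passed). AP20187 lowered Csf1 to 249 and 247 TPM in p65ko cells (difference -0.62, SE 0.032, limma adjusted p = 9.15e-13, 59.4% of 11987 genes passed, median gene -0.19) and to 252 TPM in the single siPKC library (difference -0.34, SE 0.039, limma adjusted p = 5.20e-07, 48.1% of 11308 genes passed, median gene -0.14). Set to equal medians these were -0.42 and -0.21. The responses differed from their controls by -0.13 for p65ko (95% interval -0.22 to -0.033, limma adjusted p = 0.139) and -0.13 for siPKC (95% interval -0.24 to -0.026, limma adjusted p = 0.113), in interactions where 4.10% and 8.29% of genes passed. With medians set equal both interactions passed the threshold, at -0.16 (limma adjusted p = 0.0227) and -0.20 (limma adjusted p = 0.00829).

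Cells with a construct differed from parental cells in resting Csf1 in 3 of 4 comparisons. Untreated MLKL cells lay below parental cells in NIH3T3 (difference -0.15, SE 0.032, limma adjusted p = 5.55e-04, 51.7% of genes passed) and 0.46 above them in LLC (SE 0.027, limma adjusted p = 1.04e-07, 57.7% of genes passed). Untreated GSDMD cells differed from parental NIH3T3 cells by -0.050 (95% interval -0.12 to 0.017, limma adjusted p = 0.194, 55.2% of genes passed) and lay 0.38 above parental LLC cells (SE 0.027, limma adjusted p = 2.17e-07, 61.7% of genes passed). These comparisons share the parental libraries within a line. Over the 13 mouse treatment comparisons Csf1 was higher in 4, lower in 7 and not past the threshold in 2, and with medians set equal the fall in siCTR cells was not called.

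Csf2, the granulocyte-macrophage factor, was near 0 in resting cells and was detected above 1 TPM in 10 of 51 mouse libraries, all of them treated NIH3T3 cells. It was listed at 0 in 17 libraries and reached 10.3 TPM. It had enough signal for a test in 5 of 13 treatment comparisons, each time because of the treated libraries, so its direction in those 5 was set by that filter. Every interaction of Csf2 and Csf3 below also entered its test through treated libraries of the arms where they are high, so its direction is in part fixed by the filter. Of the 25 neighbouring groups in order of level, 16 overlapped, nearly all of them under 1 TPM.

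**Figure D2:**
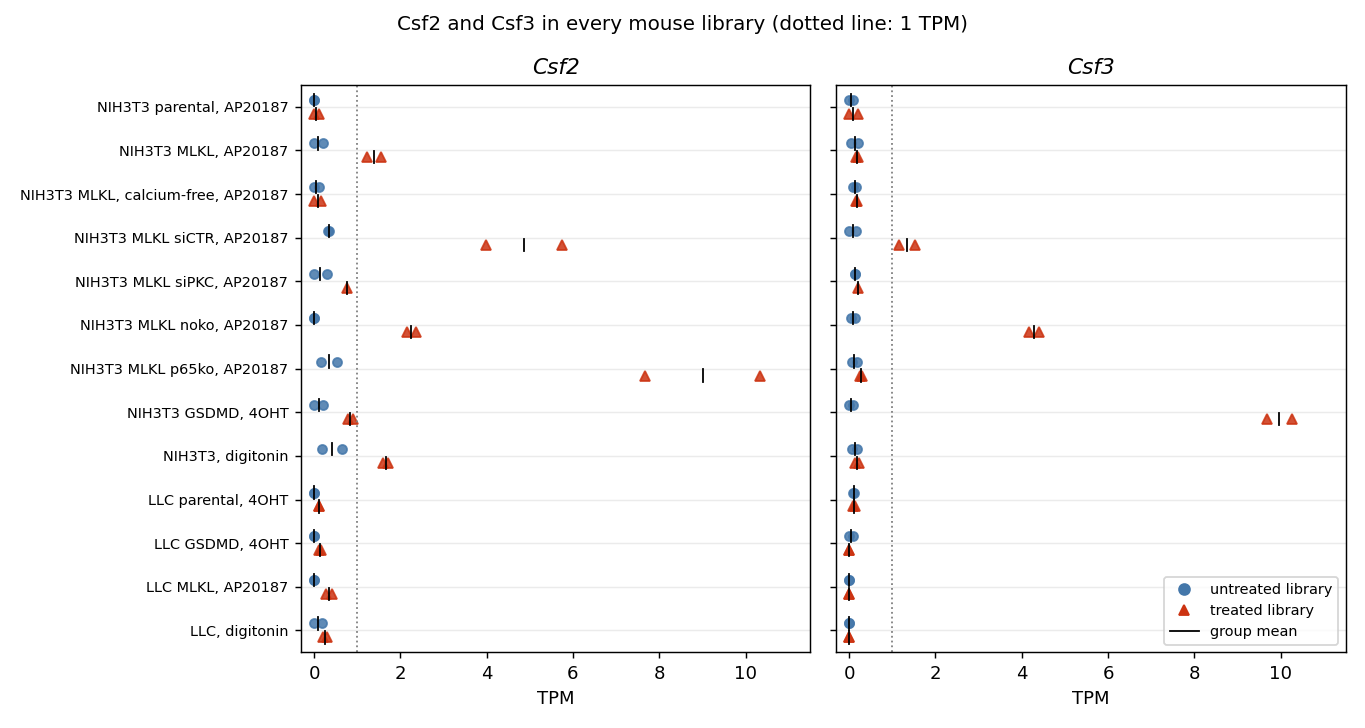
Csf2 (left) and Csf3 (right) in TPM in each mouse library by experiment, with untreated libraries as circles, treated libraries as triangles, group means as short lines and 1 TPM as a dotted line. Csf2 is highest in treated p65ko cells, where Csf3 stays under 0.3 TPM, and Csf3 is highest in 4OHT-treated NIH3T3 GSDMD cells, where Csf2 stays under 1 TPM.

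MLKL activation raised Csf2 in complete medium. Plain MLKL cells held 0 and 0.20 TPM untreated and 1.55 and 1.22 TPM after AP20187, a difference of 1.12 (SE 0.19, limma adjusted p = 9.54e-05). Parental cells given AP20187 held 0 and 0.111 TPM and were at 0 in both untreated libraries. In calcium-free medium Csf2 was 0.113 and 0 TPM untreated and 0.163 and 0 TPM treated. The MLKL response exceeded that of parental cells by 1.04 (SE 0.26, limma adjusted p = 0.00707), and the response without calcium lay below that in complete medium (interaction -1.09, SE 0.27, limma adjusted p = 0.00564). With a pseudocount of 0.1 the difference from parental cells missed the threshold (2.55, limma adjusted p = 0.0806), and with only the libraries compared in the model the calcium difference did (limma adjusted p = 0.0522).

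The control arms gave larger Csf2 responses than plain MLKL cells, at the edge of what the libraries resolve. Csf2 went from 0.323 and 0.355 to 3.98 and 5.75 TPM in siCTR cells (difference 2.11, SE 0.19, limma adjusted p = 3.36e-09). It went from 0 in both untreated noko libraries to 2.35 and 2.16 TPM (difference 1.70, SE 0.19, limma adjusted p = 1.28e-07), so no fold can be given there. Against the plain MLKL response the siCTR response was higher by 1.00 (SE 0.27, limma adjusted p = 0.00515) and the noko response by 0.58 (95% interval 0.025 to 1.14, limma adjusted p = 0.0825). With a pseudocount of 0.1 the siCTR difference fell to 0.39 (limma adjusted p = 0.787).

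Treated p65ko cells held the most Csf2 of the 26 mouse groups. Untreated p65ko cells held 0.171 and 0.528 TPM and treated ones 7.67 and 10.3 TPM, a difference of 2.89 (SE 0.18, limma adjusted p = 4.64e-11), and both treated libraries lay above every other mouse library. The response exceeded that of noko cells by 1.19 (SE 0.26, limma adjusted p = 0.0105). This excess depends on how the noko zeros are handled: with a pseudocount of 0.1 it was -0.11 (limma adjusted p = 0.987). It also missed the threshold without the second treated noko library (1.14, limma adjusted p = 0.0534), the first untreated p65ko library (1.00, limma adjusted p = 0.0791) or the second treated p65ko library (0.99, limma adjusted p = 0.0832). What stands in the levels is that treated p65ko libraries held more Csf2 than treated noko libraries, without overlap.

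The siPKC arm went the other way. Csf2 was 0 and 0.294 TPM in untreated siPKC cells and 0.754 TPM in the treated library, below both treated siCTR libraries. Its response lay below that of siCTR cells (interaction -1.49, SE 0.29, limma adjusted p = 0.00324), a value that takes its spread from the other groups. With only the siCTR and siPKC libraries in the model the adjusted p was 0.166 by limma, and with a pseudocount of 0.1 the difference was -1.37 (limma adjusted p = 0.487).

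**Figure D3:**
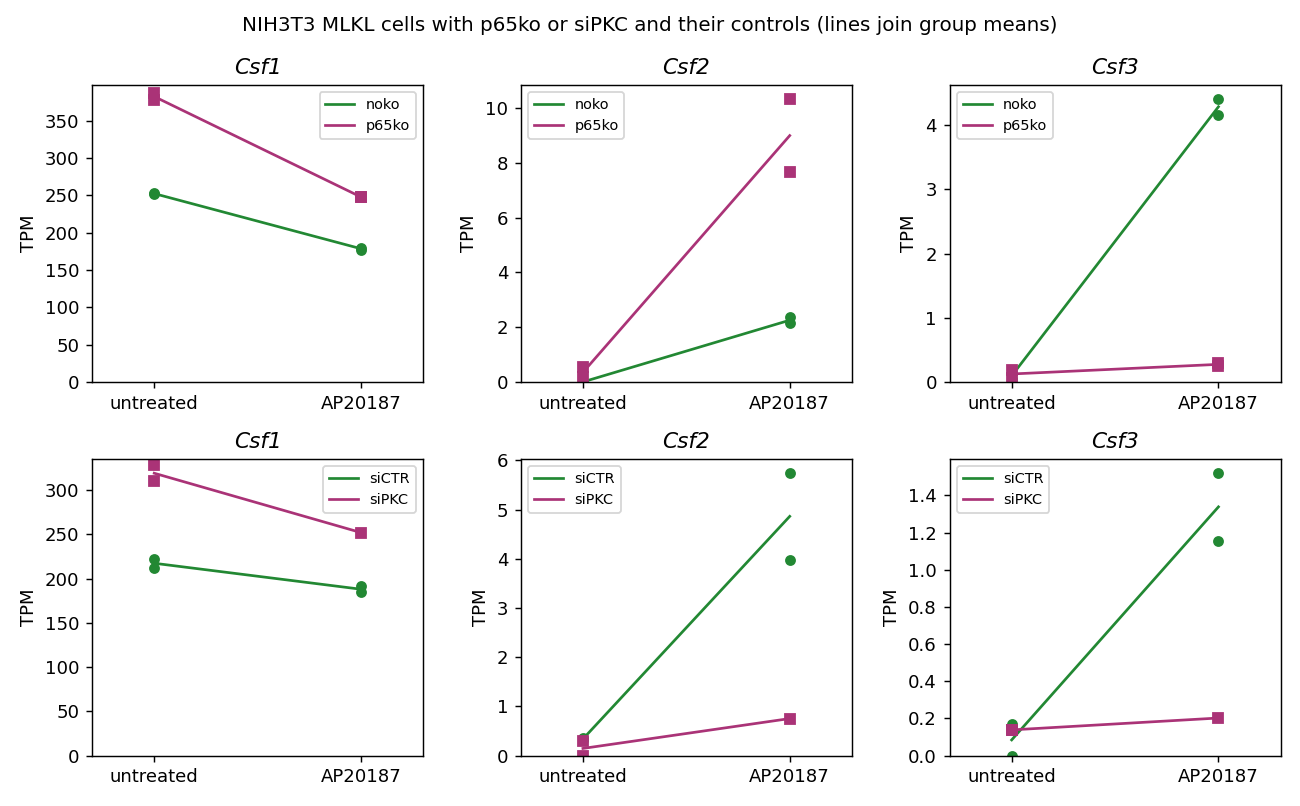
Csf1, Csf2 and Csf3 in TPM (vertical axes) in untreated and AP20187-treated NIH3T3 MLKL cells, for noko and p65ko cells (upper row) and siCTR and siPKC cells (lower row). Points are libraries and lines join group means. The Csf1 lines fall in every arm, more steeply in TPM for p65ko and siPKC cells than for their controls. Csf2 climbs higher in p65ko than in noko cells. Csf3 climbs in noko and siCTR cells while staying under 0.3 TPM in p65ko and siPKC cells.

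Digitonin raised Csf2 in NIH3T3 cells from 0.646 and 0.174 to 1.60 and 1.72 TPM (difference 0.93, SE 0.19, limma adjusted p = 1.21e-04). The LLC libraries labelled as without construct held 0 and 0.189 TPM untreated and 0.198 and 0.292 TPM treated, and their response lay below that of NIH3T3 cells (interaction -0.74, SE 0.22, limma adjusted p = 0.00562). That call was lost without the second untreated NIH3T3 library (-0.50, limma adjusted p = 0.0685) and with a pseudocount of 0.1 (-0.95, limma adjusted p = 0.379). In NIH3T3 GSDMD cells Csf2 went from 0.212 and 0 to 0.908 and 0.777 TPM after 4OHT, under the filter of 2 libraries at 1 TPM. LLC MLKL cells were at 0 untreated and at 0.425 and 0.283 TPM after AP20187, and LLC GSDMD cells at 0 untreated and at 0.171 and 0.124 TPM after 4OHT. Parental LLC cells, without a construct, were likewise at 0 untreated and at 0.119 and 0.112 TPM after 4OHT. The GSDMD and parental LLC responses differed by 0.041, at values too low to test. Without the filter, Csf2 passed in NIH3T3 GSDMD cells (0.74, limma adjusted p = 0.00156), siPKC cells (0.62, limma adjusted p = 0.0411) and LLC MLKL cells (0.44, limma adjusted p = 0.0141). The MLKL response of LLC cells was below that of NIH3T3 cells (interaction -0.68, SE 0.22, limma adjusted p = 0.0408), and the call was lost without either untreated LLC library, without either treated LLC library or without the first untreated NIH3T3 MLKL library, with limma adjusted p from 0.0549 to 0.190.

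Csf3, the granulocyte factor, was quiet in most conditions and responded in 3. It was at 0 in 15 of 51 mouse libraries and at 1 TPM or more in 6, all of treated NIH3T3 cells. The filter let it into 3 of 13 treatment comparisons, again through treated libraries alone. The highest level was in NIH3T3 GSDMD cells, which went from 0 and 0.0787 TPM untreated to 9.68 and 10.3 TPM after 4OHT (difference 3.40, SE 0.12, limma adjusted p = 2.72e-16). LLC GSDMD cells, by contrast, held 0 and 0.0891 TPM untreated and 0 in both treated libraries, and the response was lower than in NIH3T3 cells (interaction -3.46, SE 0.13, limma adjusted p = 6.17e-19).

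MLKL activation gave Csf3 in the control arms but not measurably in plain MLKL cells. Plain MLKL cells held 0.0379 and 0.215 TPM untreated and 0.164 and 0.198 TPM treated, and the groups overlapped. Csf3 went from 0 and 0.169 to 1.16 and 1.52 TPM in siCTR cells (difference 1.11, SE 0.12, limma adjusted p = 1.36e-07) and from 0.0455 and 0.143 to 4.41 and 4.17 TPM in noko cells (difference 2.27, SE 0.13, limma adjusted p = 5.02e-12). These responses exceeded the plain MLKL one by 1.04 (SE 0.18, limma adjusted p = 1.54e-04) and 2.20 (SE 0.19, limma adjusted p = 1.60e-08).

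The noko rise of Csf3 was nearly missing in p65ko cells. They held 0.184 and 0.0631 TPM untreated and 0.292 and 0.255 TPM treated, so every treated p65ko library was below every treated noko library. The p65ko response lay below the noko response (interaction -2.09, SE 0.18, limma adjusted p = 9.92e-08). The call held under every alternative that gave a value, and none was given by a filter of 5 TPM or without either treated noko library. The siPKC arm also lacked the Csf3 rise, with 0.137 and 0.140 TPM untreated and 0.202 TPM in the treated library. That response lay below siCTR (interaction -1.03, SE 0.20, limma adjusted p = 0.00248), with a limma adjusted p of 0.227 when only those 4 groups were in the model and of 0.0775 with a pseudocount of 0.1.

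In the remaining mouse groups Csf3 did not reach 0.22 TPM. Digitonin left it at 0.135 and 0.217 TPM in NIH3T3 cells, against 0.0661 and 0.187 TPM untreated. The 4 LLC digitonin libraries and the 4 LLC MLKL libraries were all at 0. At these levels the filter left changes untested. Without the filter, Csf3 passed for untreated MLKL against parental LLC cells (difference -0.14, limma adjusted p = 0.0139). There the untreated parental LLC libraries held 0.121 and 0.0821 TPM, values whose counting error is unknown.

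**Figure D4:**
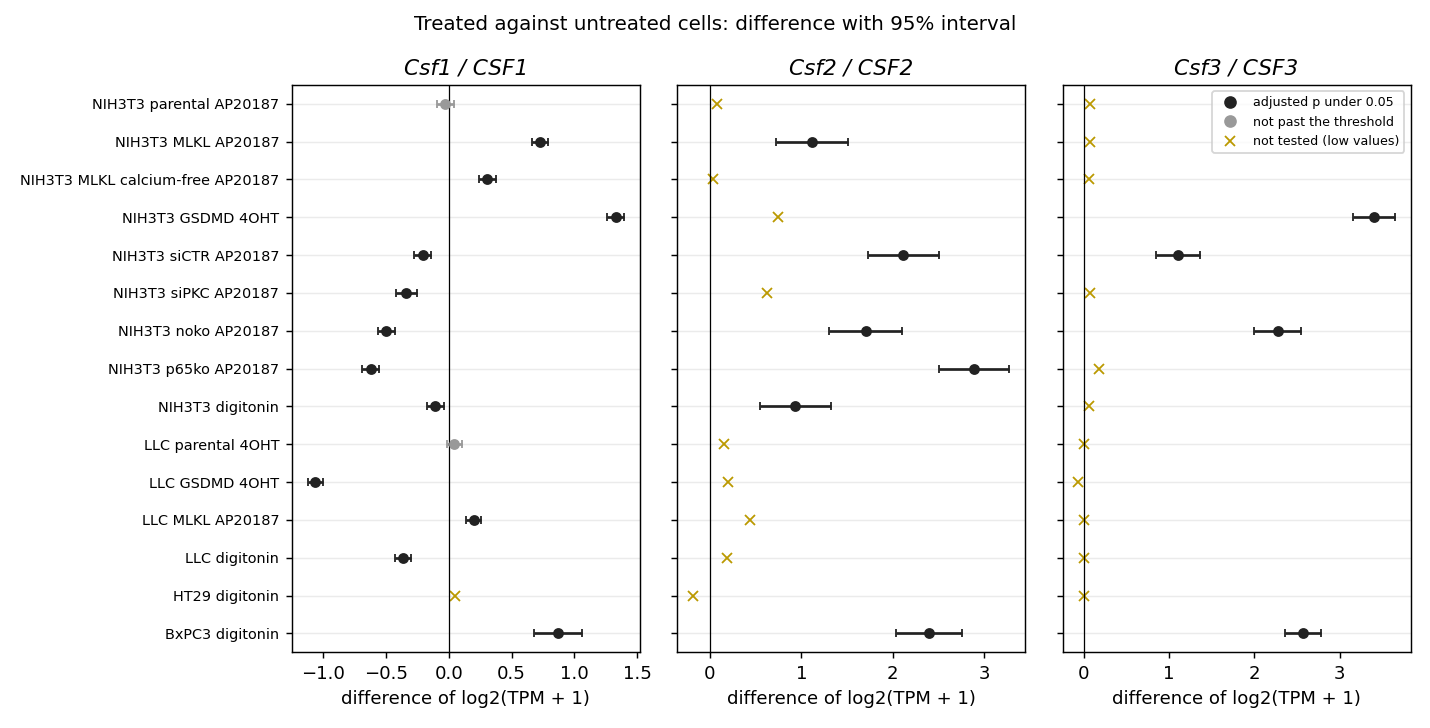
Difference of log2(TPM + 1) between treated and untreated cells (horizontal axes, scales differ between panels) for Csf1, Csf2 and Csf3 and their human counterparts in each of 15 comparisons, with 95% intervals. Dark points passed an adjusted p of 0.05, grey points did not, and crosses mark values too low to test: Csf1 lies on both sides of 0, and for mouse Csf2 and Csf3 the test was open only through treated libraries, so their tested values lie above 0 by the filter.

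Of the human lines, BxPC3 cells responded to digitonin with all 3 factors and HT29 cells held almost none. CSF1 went from 2.34 and 2.52 to 5.47 and 5.10 TPM in BxPC3 cells (difference 0.87, SE 0.080, limma adjusted p = 4.17e-05), where 80.6% of 13566 genes passed and the median gene fell (-0.37). CSF2 went from 0.979 and 0.846 to 10.8 and 7.58 TPM (difference 2.40, SE 0.15, limma adjusted p = 6.30e-06). CSF3 went from 0.15 and 0.0485 to 5.48 and 5.55 TPM (difference 2.57, SE 0.088, limma adjusted p = 4.13e-07). CSF2 and CSF3 entered the test through treated libraries only. Of 8 fibroblast markers only 3 could be tested, and all 3 rose (median 1.82), with VIM from 13.4 TPM at the lowest to 137 TPM at the highest. The rest reached 0.362 TPM at most, with COL1A2 and PDGFRB at 0. Epithelial markers moved as well: 3 of 5 rose and none fell (median 0.41). The part of these markers in the result was not tested.

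HT29 cells held CSF1 at 0.0668 and 0.0645 TPM untreated and 0.124 and 0.0844 TPM after digitonin. Their CSF2 was 0.598 and 0.556 TPM untreated and 0.328 and 0.453 TPM treated, and their CSF3 did not exceed 0.0520 TPM. None of the 3 could be tested within HT29, where 60.6% of 12193 genes passed. The BxPC3 responses exceeded those of HT29 cells by 0.82 for CSF1 (SE 0.12, limma adjusted p = 9.39e-04), 2.58 for CSF2 (SE 0.22, limma adjusted p = 9.63e-05) and 2.56 for CSF3 (SE 0.13, limma adjusted p = 1.54e-05), where 64.1% of 14393 genes passed. Untreated BxPC3 cells held more CSF1 than untreated HT29 cells (difference 1.69, SE 0.081, limma adjusted p = 1.48e-06, 80.2% of genes passed). CSF1 entered this test and the interaction through BxPC3 libraries alone, so its direction at rest was set by the filter. Dose and time of digitonin differ between species, so the mouse and human values only stand side by side: the same detergent went with lower Csf1 in both mouse lines and with higher CSF1 in BxPC3 cells.

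**Figure D5:**
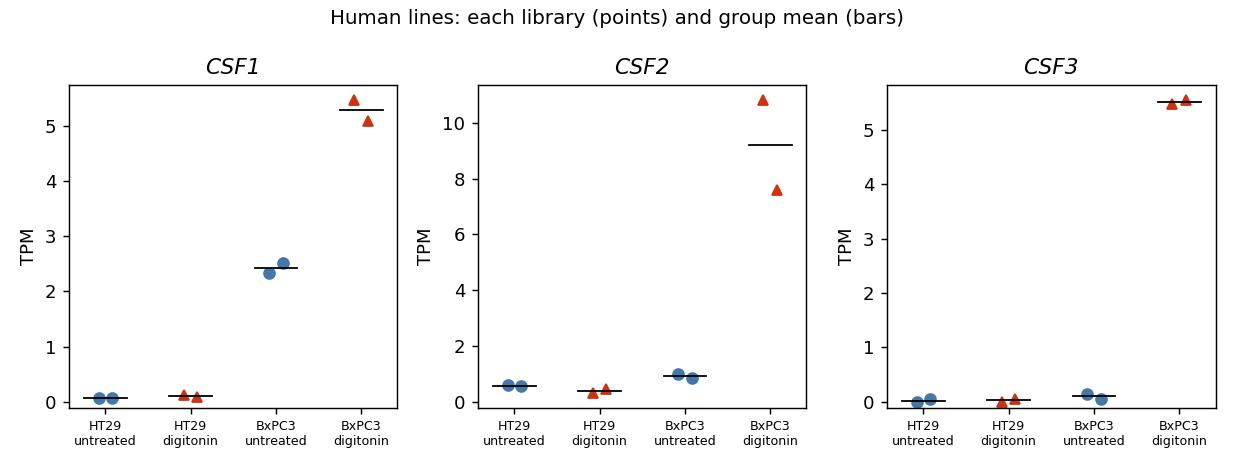
CSF1, CSF2 and CSF3 in TPM (vertical axes, scales differ) in untreated (circles) and digitonin-treated (triangles) HT29 and BxPC3 cells, with each library as a point and the group mean as a line. All treated BxPC3 libraries lie between 5.10 and 10.8 TPM, and all HT29 libraries are under 0.6 TPM.

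Receptors for these factors were scarce in the mouse lines. Csf1r, the CSF1 receptor, was at 5.12 and 5.02 TPM in untreated parental NIH3T3 cells and reached 1.04 TPM at most in LLC cells. It rose in NIH3T3 GSDMD cells from 2.85 and 2.36 to 5.76 and 4.91 TPM (difference 0.81, SE 0.10, limma adjusted p = 2.41e-07), where Csf1 also rose. In siCTR and noko cells both Csf1r and Csf1 were lower after AP20187. Both were also lower in the single treated siPKC library, where Csf1r was at 1.45 TPM against 1.82 and 1.95 TPM untreated. In the LLC digitonin libraries, near the floor, Csf1r went from 0.251 and 0.0856 to 0.0448 and 0 TPM while Csf1 fell. In LLC GSDMD cells and with digitonin in NIH3T3 cells the receptor and Csf1 moved in opposite directions. With 4OHT in LLC GSDMD cells Csf1r went from 0.337 and 0.226 to 1.02 and 1.04 TPM while Csf1 fell. With digitonin in NIH3T3 cells it went from 1.13 and 1.24 TPM to 1.92 TPM in both treated libraries while Csf1 fell. Untreated NIH3T3 cells of the digitonin experiment held Csf1r at 1.13 and 1.24 TPM, well under the other NIH3T3 cells labelled as without construct and near the 1.28 to 1.58 TPM of untreated MLKL cells. Csf2ra (the CSF2 receptor alpha chain), Csf2rb and Csf2rb2 (beta chains) did not exceed 0.217, 0.104 and 0.292 TPM, and Csf3r (the CSF3 receptor) did not exceed 1.05 TPM, a level seen in untreated p65ko cells. In the human lines CSF1R, CSF2RA, CSF2RB and CSF3R stayed at or under 0.480 TPM.

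Il34, the other ligand of CSF1R, was at 10.9 to 30.6 TPM in NIH3T3 and 1.71 to 9.23 TPM in LLC cells. It fell together with Csf1 in LLC GSDMD cells given 4OHT, from 6.38 and 7.70 to 2.60 and 1.71 TPM (difference -1.36, SE 0.14, limma adjusted p = 1.83e-06), and in noko cells (difference -0.48, SE 0.079, limma adjusted p = 2.25e-05). Treated libraries also held less Il34 than untreated ones in the siCTR, p65ko and siPKC arms and with digitonin in both mouse lines. In p65ko cells, for example, Il34 went from 30.6 and 28.6 to 21.1 and 23.0 TPM. It did not follow Csf1 upward in NIH3T3 GSDMD cells, where its difference was -0.11 (SE 0.079, limma adjusted p = 0.198). At rest, p65ko cells held more Il34 than noko cells (0.59, SE 0.079, limma adjusted p = 3.45e-06), the direction of Csf1, while siPKC cells held less than siCTR cells (difference -0.63, SE 0.079, limma adjusted p = 1.20e-06), the direction opposite to Csf1. IL34 rose with digitonin in BxPC3 cells from 2.95 and 3.24 to 8.94 and 11.2 TPM (difference 1.43, SE 0.13, limma adjusted p = 4.24e-05). It also rose past the threshold in HT29 cells, which held almost no CSF1, from 1.18 and 0.798 to 2.01 and 1.98 TPM (difference 0.60).

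Transcription factors with described roles at these genes were counted in the same libraries, beside the share of all genes called in either direction. In plain MLKL cells 12 of 22 tested members of that list rose and 1 fell (list median 0.35, all genes -0.022, 32.3% of genes passed), led by the early growth response factor Egr1, a zinc finger transcription factor, at 7.37 (SE 0.067, limma adjusted p = 3.46e-26) and the AP-1 subunit Fos (4.71, SE 0.10, limma adjusted p = 1.18e-19). Without calcium 4 rose and 4 fell (median -0.033, all genes 0.015, 5.69% of genes passed), with Egr1 at 1.34 (SE 0.067, limma adjusted p = 2.34e-11). In NIH3T3 GSDMD cells 19 of 22 rose and 2 fell (median 1.19, all genes -0.29, 78.6% of genes passed), led by Fosb at 5.14 (SE 0.071, limma adjusted p = 4.00e-23). In LLC GSDMD cells, where Csf1 fell and Csf3 was at 0, 20 of 21 rose and none fell (median 1.24, all genes -0.25, 82.0% of genes passed), led by Fosb at 3.12 (SE 0.11, limma adjusted p = 1.53e-10). In the p65ko interaction 10 of 22 factors had a lower response than in noko cells and none a higher one (median -0.31, all genes 0.030, 4.10% of genes passed), among them Junb (difference -0.88, SE 0.12, limma adjusted p = 6.64e-05) and Nfkb1, which encodes the p50 partner of p65 (difference -0.84, SE 0.047, limma adjusted p = 1.82e-10). That list includes Rela, the gene of p65 itself, so this member is not a readout apart from the knockout. With AP20187 Rela went from 49.7 and 49.2 to 94.8 and 91.7 TPM in noko cells. In p65ko cells it went from 13.6 and 14.1 to 19.9 and 18.9 TPM. Against siCTR, siPKC gave a lower response for 14 of 22 and a higher one for none (median -0.47, all genes 0.044, 8.29% of genes passed).

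Factors that set the life of AU-rich mRNAs were counted in the same way. Of 10 tested, 7 rose and none fell in plain MLKL cells (median 0.49, all genes -0.022, 32.3% of genes passed), led by Zfp36 (tristetraprolin, which binds AU-rich elements and promotes decay) at 4.52 (SE 0.10, limma adjusted p = 3.52e-19). None of the 10 passed in calcium-free medium by limma (median 0.038, all genes 0.015, 5.69% of genes passed). With so few genes passing there, the absence of calls says little about this list. In noko cells 6 rose and 2 fell (median 0.38, all genes -0.22, 66.0% of genes passed), with Zfp36 at 4.22 (SE 0.10, limma adjusted p = 1.47e-18) and Zc3h12a (regnase-1, an RNase of inflammatory mRNAs) at 2.20 (SE 0.073, limma adjusted p = 4.54e-16). The Zc3h12a response was lower in p65ko than in noko cells (interaction -1.35, SE 0.10, limma adjusted p = 2.82e-08). In HT29 cells 3 of 10 rose and 7 fell after digitonin (median -0.21, all genes -0.16, 60.6% of genes passed). In BxPC3 cells 5 of 10 rose and 5 fell (median -0.018, all genes -0.37, 80.6% of genes passed), led by ZFP36 at 5.79 (SE 0.051, limma adjusted p = 2.61e-09).

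Among signalling genes below the receptors, calls were all upward in plain MLKL cells and in both directions in noko and BxPC3 cells. The shares called in plain MLKL and BxPC3 cells lay near those of all genes. In plain MLKL cells 5 of 13 rose and none fell (median 0.090, all genes -0.022, 32.3% of genes passed), with Socs3, a feedback inhibitor of cytokine receptors, at 1.54 (SE 0.068, limma adjusted p = 8.61e-14) and Socs1 at 0.91 (SE 0.11, limma adjusted p = 1.78e-06). In noko cells 7 of 13 rose and 5 fell (median 0.10, all genes -0.22, 66.0% of genes passed), led by Cish, a STAT5-induced inhibitor, at 1.60 (SE 0.11, limma adjusted p = 9.47e-11). In BxPC3 cells 4 of 14 rose and 6 fell (median -0.080, all genes -0.37, 80.6% of genes passed), with SOCS3 at 4.36 (SE 0.057, limma adjusted p = 1.47e-08) and SOCS1 at 3.34 (SE 0.11, limma adjusted p = 3.10e-07).

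The 3 mouse factors did not share a pattern over treatments. Across the 13 mouse treatment comparisons the Pearson correlation of differences was -0.19 for Csf1 and Csf2, 0.44 for Csf1 and Csf3 and 0.28 for Csf2 and Csf3. Among 10978 eligible genes, the 5 most like Csf1 were Syde1 (r = 0.947), Ltbp2, Cdk18, Bcar1 and Aebp1 (r = 0.884). Those most like Csf2 were 5031425E22Rik (r = 0.889), AI607873, Has2, Procr and Evi2a (r = 0.779). Those most like Csf3 were Il23a (r = 0.899), Dbi, Mapkapk2, Gm15645 and Il6 (r = 0.859), 2 of which encode secreted cytokines. The points of each correlation come from the same libraries, several of them share the MLKL line, and the values for Csf2 and Csf3 rest on the few comparisons in which they were above 1 TPM.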

How the data were processed

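Polyadenylated RNA of 59 libraries was analysed: 51 mouse and 8 human. The authors deposited TPM per gene, a unit inferred from the values (mouse library totals 999910 to 999989), and per the submitters' processing notes ran Salmon with builds mm10 and hg19; versions and strand settings were not found in the labels or headers. Differences were fitted with limma 3.58.1 (trend) in R 4.3.3 on log2(TPM + 1), with 1 model for all NIH3T3 groups, 1 for LLC, 1 for the human lines and 1 for all mouse libraries where lines were compared. Genes with 1 TPM or more in at least 2 of the libraries compared were tested, and called at a Benjamini-Hochberg adjusted p under 0.05 over all genes tested. The percent of genes called is given beside each comparison, in either direction. No replicate block was used. Of 37 comparisons, 7 were chosen after seeing the data: the siCTR and noko arms against plain MLKL cells, and LLC against NIH3T3 responses. The design named a count test if the files held counts, and they do not. Treated siPKC cells have 1 library, which is assumed to vary like the other groups.

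The members and lists (receptors and ligands, receptor signalling, transcription factors, mRNA decay factors, cell type markers) were chosen with earlier results of these data known. Every member is named in every comparison. Of a list, receptors, other ligands, Rela and up to the 2 largest changes past the threshold in a comparison are named. The like genes are the 5 highest Pearson correlations over 13 mouse comparisons among genes with a mean of 5 TPM in a mouse group. The fit was tested on simulated data. Alternatives were a pseudocount of 0.1, no filter, a filter of 5 TPM, median centring, quantile normalization, only the libraries compared, a replicate block, leaving out each library, and, added later, LLC without its digitonin libraries. The block was fitted with only the libraries compared. Sequences were read from RefSeq promoters and GENCODE vM21 transcripts; the tables used here matched 2 of 3 promoters. Figures used Python 3.11.15, numpy 2.4.6 and matplotlib 3.10.9, and values were read by data.table (version 1.17.8).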

Additional observations from a re-analysis of the deposited data

Results flagged for a closer look

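Responses whose difference between arms passed the threshold are gathered here, as limma interactions on the log2(TPM + 1) scale. Csf2, Csf3, CSF2 and CSF3 had 1 TPM or more only in treated libraries of the arms where they are high, so they entered these tests through those libraries and their differences are best read beside the levels. The siCTR and noko arms against plain MLKL cells and the comparisons of LLC with NIH3T3 cells were added after the data were seen, and interactions with plain MLKL or noko cells share those libraries. For Csf1 the difference was 0.75 for MLKL against parental NIH3T3 cells, -0.42 for calcium-free against complete medium, -0.93 for siCTR and -1.22 for noko against plain MLKL cells, and -1.11 for GSDMD against parental LLC cells. Between lines, the Csf1 response of LLC cells differed from that of NIH3T3 cells by -0.53 for MLKL, -2.40 for GSDMD and -0.26 for digitonin, the last with the LLC libraries whose Gsdmd level goes against their label.

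For Csf2 the difference was 1.04 for MLKL against parental cells, -1.09 for calcium-free against complete medium, 1.19 for p65ko against noko, -1.49 for siPKC against siCTR and 1.00 for siCTR against plain MLKL cells. The LLC response of Csf2 differed from that of NIH3T3 cells by -0.68 for MLKL and -0.74 for digitonin. For Csf3 it was -2.09 for p65ko against noko, -1.03 for siPKC against siCTR, 1.04 for siCTR and 2.20 for noko against plain MLKL cells, and -3.46 for GSDMD in LLC against NIH3T3 cells. In BxPC3 against HT29 cells the digitonin response differed by 0.82 for CSF1, 2.58 for CSF2 and 2.56 for CSF3. CSF1 entered that test through BxPC3 libraries alone.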

How the results depend on the processing

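Of 61 tested results on the members, alternatives gave 702 values, of which 666 kept direction and side of the threshold. A single value reversed: the Csf2 difference of p65ko against noko, from 1.19 to -0.11 with a pseudocount of 0.1. The cause of changes was not tested unless stated. With that pseudocount the Csf2 calls were lost for MLKL against parental (2.55), siPKC against siCTR (-1.37), siCTR against plain MLKL (0.39), LLC against NIH3T3 MLKL (-0.92) and LLC against NIH3T3 digitonin (-0.95), as was Csf3 for siPKC against siCTR (-2.78). Median centring lost Csf1 in siCTR (-0.022) and added Csf1 for p65ko against noko (-0.16), siPKC against siCTR (-0.20) and untreated GSDMD against parental NIH3T3 (-0.083), and Csf2 for noko against plain MLKL (0.84, and 0.81 by quantile normalization). Csf2 for LLC against NIH3T3 MLKL was lost with quantile normalization (-0.32), and at -0.68 both without the filter and with only the libraries compared. Using only the libraries compared leaves differences as they are and estimates the spread from fewer samples: calls were lost for Csf1 in NIH3T3 digitonin (-0.11), Csf2 in calcium-free against complete medium (-1.09), and Csf2 (-1.49) and Csf3 (-1.03) in siPKC against siCTR, and gained for Csf1 in p65ko against noko (-0.13).

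Replicate numbers are shared between groups, but the labels do not say that they mark a shared batch, and same-numbered libraries correlated in their deviations at -0.047 to 0.133 over 13 pairs of groups. A replicate block left the differences unchanged and moved adjusted p in limma: Csf1 in calcium-free AP20187 (0.31, 0.112), Csf2 for MLKL against parental (1.04, 0.0634), for calcium-free against complete medium (-1.09, 0.0684) and for LLC against NIH3T3 digitonin (-0.74, 0.0703) missed the threshold, and Csf1 for p65ko against noko (-0.13, 0.0438) passed it. The block was fitted with only the libraries compared, so these moves mix the block with a spread estimated from fewer samples. No block could be made for LLC MLKL or siPKC treatment comparisons.

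Leaving out 1 library at a time, 10 of 294 values lost the call and none reversed. The values ranged from -0.13 to -0.086 for Csf1 in NIH3T3 digitonin, from -0.81 to -0.55 for Csf2 in LLC against NIH3T3 MLKL, from 0.99 to 1.38 for Csf2 in p65ko against noko and from -0.99 to -0.50 for Csf2 in LLC against NIH3T3 digitonin. Counts of genes past the threshold, on which the percentages rest, moved more. Without 1 library they ranged from 9 to 19 for parental AP20187 (35 with all libraries), 2489 to 3167 for MLKL (3757), 273 to 358 for calcium-free MLKL (659), 16 to 30 for parental LLC 4OHT (96), 373 to 428 for LLC MLKL (844), 277 to 323 for p65ko against noko (501) and 527 to 1141 for siPKC against siCTR (969). With only the libraries compared the counts were 5, 2087, 75 and 27 for the first 4 of these, 768 for p65ko against noko, 54 for siPKC against siCTR, 3065 (5261) for untreated siPKC against siCTR and 926 (1599) for LLC against NIH3T3 MLKL. With the block, also fitted with only the libraries compared, they were 16, 2019 and 1 for the first 3, 1610 (2442) for MLKL against parental, 3049 for untreated siPKC against siCTR and 3261 (5326) for untreated siCTR against plain MLKL. Quantile normalization gave 3073 (5157) and 3149 (5297) for siCTR and noko against plain MLKL. Values near 0 TPM limit Csf2 and Csf3, and their counting error is unknown.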
